A study of Mus musculus with 8 samples.

Results

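Kainate and metabotropic glutamate receptors were followed through 9 genes in the developing mouse cortex. They are the 5 kainate receptor subunit genes Grik1, Grik2, Grik3, Grik4 and Grik5, and the metabotropic receptor genes Grm2, Grm3, Grm5 and Grm7. They were found by symbol among the 23284 gene symbols counted. The group III metabotropic receptor genes Grm4, Grm6 and Grm8 are given beside them. The data are RNA-seq of poly(A) RNA from the dorsal cortex of C57BL/6 embryos at day E15.5, with meninges and ganglionic eminences removed, in 4 libraries labelled WT and 4 labelled ErbB4 KO (genotype ErbB4 -/-). The comparison asks which genes depend in the developing cortex on ErbB4, the receptor tyrosine kinase for neuregulins. ErbB4 -/- embryos are known to need an α-MHC-driven ErbB4 transgene in the heart to survive. The study kept its mouse lines homozygous, with the exception of ErbB4 -/+ mice. Neither litters nor pooling of embryos is stated for these libraries, so p-values measure only the spread between these samples.

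Glutamate is the main excitatory transmitter of the cortex. Kainate receptors are glutamate-gated ion channels built of subunits: the products of Grik1, Grik2 and Grik3 (GluK1 to GluK3) can form channels on their own, whereas those of Grik4 and Grik5 (GluK4 and GluK5) bind glutamate with high affinity and work only together with the former. Metabotropic receptors are G protein-coupled. Group I, to which Grm5 belongs, acts through Gq and phospholipase C, and groups II (Grm2 and Grm3) and III (Grm4, Grm6, Grm7 and Grm8) act through Gi and Go to lower adenylyl cyclase activity. In the embryonic cortex these receptors are known from progenitors and migrating neurons before most synapses exist.

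Libraries held 28205703 to 38346416 counts with the WT label and 31574536 to 48871480 with the ErbB4 KO label (exact two-sided permutation test of the means over 70 assignments, p = 0.257). Erbb4 itself, summed over all its exons, was not lower under the ErbB4 KO label. It stood at 8.99, 19.9, 25.3 and 19.2 CPM (TMM-normalized counts per 1000000 counts) in the WT libraries and at 20.9, 24.6, 20.7 and 23.5 CPM in the others (log2 fold change 0.28, SE 0.23, adjusted p = 0.812 by edgeR). The value was 0.062 without WT replicate 1 and 0.48 without WT replicate 3. Genotypes are therefore given as the labels have them. Of the markers of the labelled tissue, Neurod6, a gene of cortical projection neurons, was high throughout at 839 to 1093 CPM. WT replicate 1 stood apart: across genes its deviation from the mean fell with transcript length (rho = -0.579, against 0.0374 to 0.223 in the other 7 libraries). Sex-linked genes split the labels too, since Xist was at 983 to 1687 CPM in WT replicates 1 to 3 and at 2.70 to 3.82 CPM in the other 5 libraries, so sex and label cannot be told apart beyond WT replicate 4. In bulk RNA, fewer cells that use a gene and less RNA per cell cannot be told apart either.

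Receptor genes of one family resemble each other, so the reads of one could be counted for another. The coding sequences of the 9 genes were compared in the NCBIM37 (mm9) assembly to see how far that could go. None of the 36 pairs shared a stretch of 50 bases, the length of a read here, in any of their annotated protein-coding transcripts, untranslated parts included. The most similar pair was Grik1 and Grik2, with 73.7% of aligned bases identical, followed by Grik4 and Grik5 with 72.5%. Pairs of a kainate with a metabotropic gene reached 59.0 to 63.8%, which is the level such an alignment gives between the families. The longest coding stretch shared by any pair was 38 bases long and lay in Grik3 and Grik5, the most abundant genes of the set. It is shown in capitals within 90 coding bases, with that of Grm2 and Grm3, the group II pair, whose longest shared stretch was 20 bases.
Grik3, chr4:125371251-125371340, plus strand, exon 13: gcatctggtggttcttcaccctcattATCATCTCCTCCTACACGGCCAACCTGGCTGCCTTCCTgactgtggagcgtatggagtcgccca
Grik5, chr7:25807460-25807466 and chr7:25800910-25800992, minus strand, exons 15 and 16: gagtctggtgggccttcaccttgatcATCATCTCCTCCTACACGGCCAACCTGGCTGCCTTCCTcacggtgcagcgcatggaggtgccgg
Grm2, chr9:106552768-106552857, minus strand, exon 3: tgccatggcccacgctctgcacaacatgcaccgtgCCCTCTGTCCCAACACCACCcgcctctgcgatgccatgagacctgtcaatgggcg
Grm3, chr5:9569960-9570049, minus strand, exon 3: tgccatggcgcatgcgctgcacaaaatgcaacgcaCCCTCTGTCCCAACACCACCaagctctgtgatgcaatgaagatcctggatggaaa
A 50-base read that fits both genes of a pair without a mismatch was thus not found in the protein-coding transcripts compared. Identity and the longest shared stretch were read from coding sequences only. Transcripts not annotated as protein-coding were not compared, and the counting mode is not given in the sources used here.

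The 9 genes covered a wide range of abundance, from 4.82 to 279 CPM, as the plot of CPM in the 8 libraries shows.

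**Figure D1:**
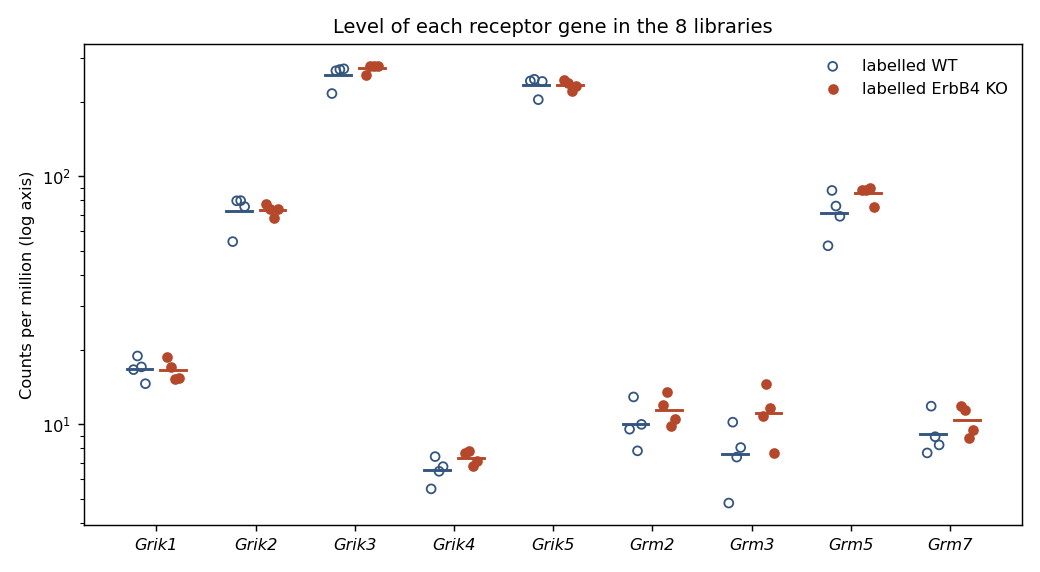
Level of the 9 receptor genes in CPM on a log axis, with open circles for the 4 libraries labelled WT, filled circles for the 4 labelled ErbB4 KO and a bar at each group's mean. Grik3 and Grik5 lie between 204 and 279 CPM in every library, and the points of both labels overlap for each of the 9 genes.

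Levels of different genes were compared per kilobase of the longest annotated transcript. On this scale Grik5 was the highest, at 60.8 CPM per kb (range over the 8 libraries 53.2 to 64.2), followed by Grik3 at 29.5 (24.05 to 31.1). Grik2 at 15.2 (11.4 to 16.6) and Grm5 at 11.4 (7.61 to 13.01) came next, and their ranges overlapped. Grik1 followed at 5.77 CPM per kb (5.04 to 6.52), apart from its neighbours. Below it Grm2 (3.24), Grm3 (2.65) and Grm7 (2.32) formed a run in which each gene's range overlapped the next. Grm4 at 1.43 CPM per kb and Grik4 at 1.18 also overlapped, Grm8 stood at 0.626, and Grm6 at 0.0102. The order of the top pair rests on the length used: per kilobase of coding sequence Grik3 was at 95.8 (78.2 to 101) and Grik5 at 79.4 (69.4 to 83.8), since the longest Grik3 transcript has 8973 bases and that of Grik5 has 3836. The order of the other 7 members among themselves was the same with either length.

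The kainate family was thus made up mainly of Grik5 and Grik3. Grik5 took 54.7% ± 4.21 (SD, n = 4) of the summed kainate level per kb in the libraries labelled WT and 53.6% ± 0.898 (SD, n = 4) in those labelled ErbB4 KO, and Grik3 took 25.6% ± 2.22 and 26.9% ± 1.61. Per kb of coding sequence Grik3 led in the group means, with 44.7% and 46.3%, and Grik5 took 38.5% and 37.1%. In WT replicate 1 Grik5 was ahead on that scale, at 43.7% against 41.4% for Grik3. Grik2, a main channel-forming subunit of the forebrain, took 13.5% ± 1.99 and 13.4% ± 0.368. Grik1 held 5.21% and 5.05%, and Grik4 0.993% and 1.10%. The high-affinity subunits Grik4 and Grik5 together held 55.7% and 54.7% per kb of transcript, and 39.5% and 38.3% per kb of coding sequence. Of the summed level of the 7 metabotropic genes given here, Grm5 took the most, 52.2% ± 3.25 and 52.8% ± 2.92. The group II genes held 26.2% ± 2.24 and 27.9% ± 2.62 of it, and the group III genes 21.6% ± 1.55 and 19.3% ± 2.34. The plot of shares by library shows Grik5 between 49.8 and 60.04% and Grm5 between 48.9 and 56.6% in the 8 libraries, while Grik2 ran from 10.8 to 15.6%, Grm2 from 12.1 to 18.5% and Grm3 from 8.75 to 16.0%.

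**Figure D2:**
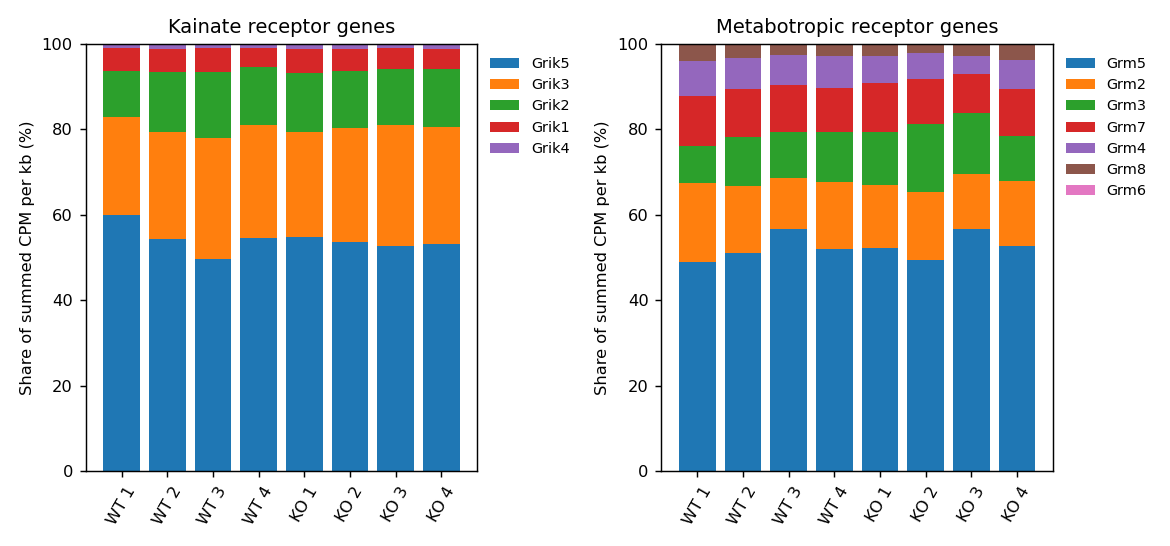
Share of each gene in the summed CPM per kb of the 5 kainate receptor genes (left) and of 7 metabotropic receptor genes (right), as stacked bars of 1 library each, WT for the WT label and KO for the ErbB4 KO label. Grik5 and Grik3 fill most of each left bar, Grm5 is the largest block of each right bar, and Grm6 is too small to be seen.

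The labelled genotypes were then compared for each gene in a fit of all 14696 genes tested. All 9 members passed the filter on low counts. None of them passed an adjusted p of 0.05 by edgeR, where 0.0272% of all genes did (4 of 14696), and none did by DESeq2 or limma-voom. At an unadjusted p under 0.05 there was 1 of 9, Grm3, by edgeR, against 5.53% of all genes in either direction and 3% in its direction. By DESeq2 it was again Grm3, with 901 of all genes, and by limma-voom 2 of 9, Grm3 and Grm5, with 840 of all genes. The log2 fold change (ErbB4 KO over WT) was above 0 for 7 of the 9, against 49.2% of all genes, and its median was 0.17 over the members against -0.0022 over all genes. With 1 library left out the median over the members ran from 0.096 to 0.23. It was 0.098 without ErbB4 KO replicate 2. In none of the 9 did the libraries of the labels lie wholly apart, against 3.34% of all genes. Without WT replicate 1, 7 of the 9 were again above 0, with Grik5 (0.017) in place of Grik2 (-0.096), the median was 0.10, and no member had an unadjusted p under 0.05. The values of Grik1, Grm2 and Grm7 were then -0.018, 0.16 and 0.11. With the Xist level as a covariate, the median was 0.19, and Grm3, Grm5 and Grm7 were at 0.51, 0.34 and 0.35.

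**Figure D3:**
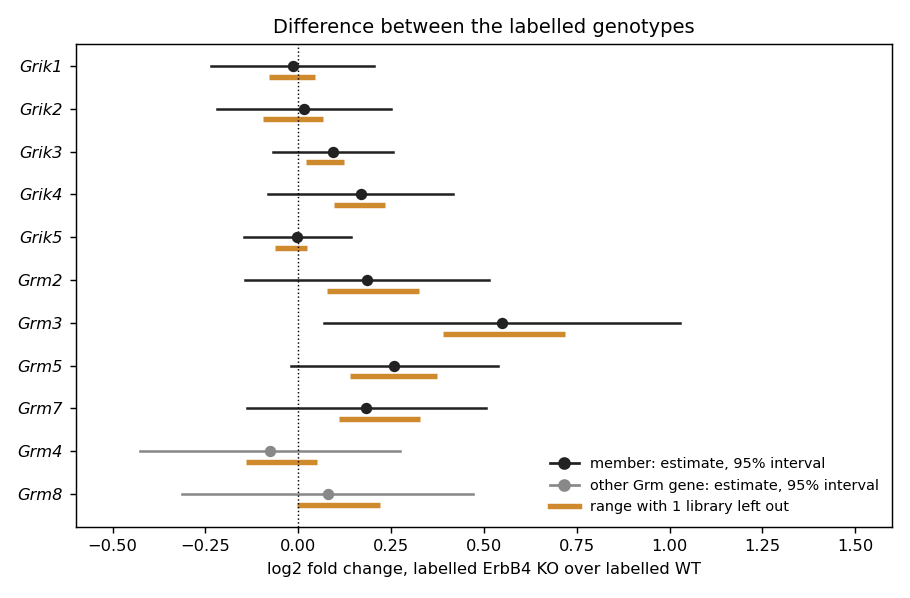
Log2 fold change of the libraries labelled ErbB4 KO over those labelled WT, with points for the edgeR estimate, thin lines for its 95% interval and orange bars for the range when 1 library is left out, for the 9 members (black) and for Grm4 and Grm8 (grey). The intervals include 0 for every gene except Grm3, whose interval runs from 0.07 to 1.03.

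Among the channel-forming kainate subunits, Grik1 (chr16:87896441-88289947, minus strand, mm9) stood at 16.6, 18.9, 17.05 and 14.6 CPM in replicates 1 to 4 with the WT label, and at 18.7, 17.1, 15.2 and 15.4 CPM with the ErbB4 KO label. The groups overlapped almost fully. Means were 16.8 ± 1.76 and 16.6 ± 1.65 CPM (SD, n = 4 each), with a log2 fold change of -0.01 (95% interval -0.23 to 0.20, adjusted p = 0.981 by edgeR). These values rest on up to 921 counts per library.

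Grik2, the subunit GluK2 (chr10:48819266-49508572, minus strand), had 54.6, 79.7, 79.8 and 75.5 CPM under the WT label and 77.3, 73.8, 68.2 and 73.7 CPM under the ErbB4 KO label. WT replicate 1 was the lowest of all 8, and the other 3 WT libraries lay within or above the range of the other label. The estimate was a log2 fold change of 0.02 (SE 0.11, interval -0.22 to 0.25, adjusted p = 0.981 by edgeR). Without WT replicate 1 it was -0.10, the opposite sign.

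Grik3, the subunit GluK3 (chr4:125167944-125391417, plus strand), was measured at 216, 267, 270 and 272 CPM against 257, 278, 279 and 279 CPM, from 6050 to 12663 counts per library. In each group replicate 1 was the low one, and the 3 others lay within 5 CPM of each other. Means were 256 ± 26.8 and 273 ± 10.7 CPM. The log2 fold change of 0.09 (SE 0.074, interval -0.07 to 0.25, adjusted p = 0.811 by edgeR) was 0.02 without WT replicate 1 and 0.01 with the trend over transcript length removed. Grik3 has the longest transcript of the members. At WT replicate 1 its fitted length trend was -0.35 on the log2 scale and its measured deviation was -0.29. The part of transcript length in the Grik3 values was not tested.

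Of the high-affinity subunits, Grik4 (chr9:42326218-42752576, minus strand) was the scarce one, at 5.49, 7.41, 6.46 and 6.75 CPM with the WT label and 7.67, 7.81, 6.79 and 7.08 CPM with the ErbB4 KO label. Only WT replicate 2 reached into the upper group, and only WT replicate 1 lay far below it. The log2 fold change was 0.17 (SE 0.11, interval -0.08 to 0.42, adjusted p = 0.810 by edgeR) from 154 to 378 counts per library. Without WT replicate 1 it was 0.10.

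Grik5 (chr7:25794872-25857388, minus strand) had 243, 246, 204 and 242 CPM under the WT label and 244, 237, 221 and 230 CPM under the ErbB4 KO label. WT replicate 3 was the low one, and WT replicate 1 was among the higher libraries. The means, 234 ± 19.9 and 233 ± 9.90 CPM, gave a change of -0.171% (95% interval -9.71% to 10.4%, adjusted p = 0.994 by edgeR). This was the tightest interval among the 9 genes. The sum over the 5 kainate genes was 585 ± 38.0 CPM and 603 ± 9.68 CPM, with the lowest value, 535 CPM, in WT replicate 1.

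The metabotropic members had larger estimates, all 4 above 0, with a median log2 fold change of 0.22 against 0.02 for the 5 kainate genes. Without WT replicate 1 these medians were 0.15 and 0.017, and with Xist as a covariate 0.34 and 0.029. Without WT replicate 2, Grm2, Grm3, Grm5 and Grm7 were at 0.33, 0.72, 0.37 and 0.33. Whether the families differ was not tested. Their summed level was 98.2 ± 19.8 CPM under the WT label and 118 ± 10.5 CPM under the ErbB4 KO label, and WT replicate 1 was again the lowest at 74.5 CPM.

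Grm3, a group II receptor found on neurons and glial cells (chr5:9485236-9725352, minus strand), had the largest estimate. It stood at 4.82, 10.2, 7.38 and 8.06 CPM in the libraries labelled WT and at 10.8, 14.5, 11.6 and 7.69 CPM in those labelled ErbB4 KO. Replicates 1 to 3 with the ErbB4 KO label were above every WT library, and ErbB4 KO replicate 4 lay among the WT values. Means were 7.61 ± 2.22 and 11.1 ± 2.80 CPM (SD, n = 4 each), a log2 fold change of 0.55 (SE 0.22, interval 0.07 to 1.03), with an unadjusted p of 0.0284 and an adjusted p of 0.810 by edgeR. The difference thus does not pass the correction over all genes, and counts were low, from 135 to 532 per library. It was above 0 under every alternative run, 0.39 without WT replicate 1 and 0.72 without WT replicate 2, and its unadjusted p ranged from 0.00695 to 0.199. The unadjusted p was above 0.05 without WT replicate 1, WT replicate 3, ErbB4 KO replicate 2 or ErbB4 KO replicate 3, and with Xist as a covariate. At WT replicate 1 the fitted length trend for this gene was -0.01 and its measured deviation was -0.89. The part of transcript length in the Grm3 values was not tested.

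Grm2, the other group II receptor (chr9:106546868-106558440, minus strand), was at 9.56, 12.9, 7.82 and 10 CPM and at 11.9, 13.4, 9.83 and 10.5 CPM. The lowest library was WT replicate 3, and the highest of each group was its replicate 2. The log2 fold change was 0.18 (SE 0.15, interval -0.14 to 0.51, adjusted p = 0.813 by edgeR), from 268 to 588 counts per library. Without WT replicate 3 it was 0.08, and without WT replicate 2 it was 0.33 (unadjusted p = 0.0344 by edgeR).

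Grm5, the most abundant of the metabotropic genes given here and a group I receptor of neurons and their progenitors (chr7:94750952-95283417, plus strand), was at 52.5, 87.8, 75.9 and 69.0 CPM under the WT label. It was at 88.5, 87.7, 89.7 and 75.4 CPM under the ErbB4 KO label. WT replicate 2 sat beside the 3 higher libraries of the other label, and ErbB4 KO replicate 4 sat beside WT replicate 3. Means were 71.3 ± 14.7 and 85.3 ± 6.67 CPM, a change of 19.7% (95% interval -1.31% to 45.1%, unadjusted p = 0.0651 and adjusted p = 0.810 by edgeR). The log2 fold change of 0.26 was 0.14 without WT replicate 1 and 0.21 with the length trend removed.

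Grm7, a group III receptor of presynaptic terminals (chr6:110595575-111517224, plus strand), was at 7.67, 11.8, 8.91 and 8.26 CPM and at 11.9, 11.4, 8.78 and 9.53 CPM. WT replicates 2 and 3 lay within the range of the other label, and WT replicates 1 and 4 lay below it. Its log2 fold change was 0.18 (SE 0.15, interval -0.14 to 0.50, adjusted p = 0.813 by edgeR). Without WT replicate 2 it was 0.33 (unadjusted p = 0.0272 by edgeR), and without ErbB4 KO replicate 1 it was 0.11. The genes Grik2, Grik3, Grik4, Grm5 and Grm7 overlap other annotated transcripts. These lie on the same strand for Grik2, Grik3 and Grik4, on the opposite strand for Grm5 and on both strands for Grm7. The libraries hold no strand, so reads cannot be told apart where exons coincide on either strand.

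The other group III genes had estimates near 0. Grm4 and Grm8 had log2 fold changes of -0.08 and 0.08 (adjusted p = 0.921 and 0.929 by edgeR). Grm6, known from bipolar cells of the retina, had at most 3 counts in any library and was not tested. It was not detected in WT replicates 1 and 4, where a count of 0 allows up to 0.107 and 0.0855 CPM (3 counts, counting error only).

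The deviations of each gene from its own mean were also read by library. This was done for the members only. The same counts over all genes were not made, so they cannot be read as particular to the receptors. The lowest library of each member was a WT one, and the highest was a library labelled ErbB4 KO for 6 of the 9. WT replicate 1 was the lowest library for 6 of the 9 genes and lay below the mean for 7, with a median deviation of -0.33 on the log2 scale. WT replicate 2 was below the mean for 0 of the 9 and had a median deviation of 0.18, the same as that of ErbB4 KO replicate 2. The depths were 28205703 counts in WT replicate 1, the shallowest, and 31070733 in WT replicate 2.

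**Figure D4:**
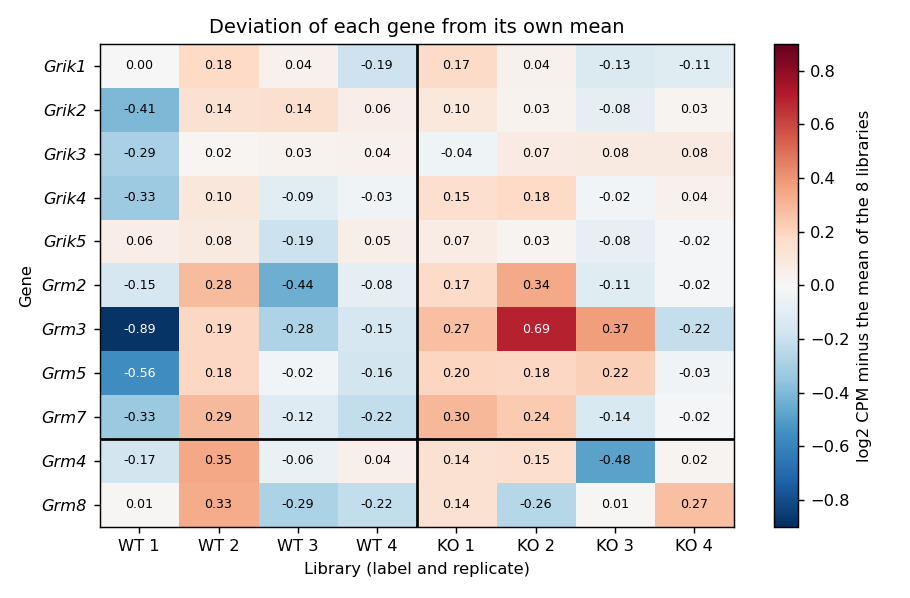
Log2 CPM of each gene minus its mean over the 8 libraries, with the 9 members above the line, Grm4 and Grm8 below it, and the WT and KO labels left and right of the vertical line. Blue cells in the first column show the low values of WT replicate 1, down to -0.89 for Grm3, and the darkest red cell is Grm3 in ErbB4 KO replicate 2 at 0.69.

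For each member the gene of the closest pattern was found as the smallest root mean square difference of centred log2 CPM over the 8 libraries. Closest to Grm5 was Gabrb2, a GABA-A receptor subunit gene, at 0.069, and closest to Grm7 was Col25a1, a transmembrane collagen gene, at 0.067. Grm2 lay nearest to Lamc3, a laminin subunit gene, at 0.085, and Grm3 nearest to 9230116N13Rik at 0.097. For the kainate genes, whose own deviations were smaller (root mean square 0.087 to 0.17, against 0.23 to 0.46), these were Lrtm2 for Grik1 (0.052), Phka2 for Grik2 (0.034), Gtf3c4 for Grik3 (0.014), Tro for Grik4 (0.031) and Lrfn4 for Grik5 (0.026). These are descriptions of 8 libraries.

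Genes that work with the receptors were read from the same fit, and none of them passed an adjusted p of 0.05. The counts for these lists stand beside 49.2% of all genes above 0 and 5.53% at an unadjusted p under 0.05. Of 9 kainate receptor partners, 7 had a log2 fold change above 0 and 1 an unadjusted p under 0.05, and the median was 0.08. The extremes were C1ql2, a secreted C1q-like protein gene, at 0.27 and Pick1, a PDZ protein gene, at -0.07. C1ql2, at 4 to 22 counts per library, was at -0.059 without WT replicate 3, and Pick1 was at -0.022 without WT replicate 1. The auxiliary subunit genes Neto1 and Neto2, picked out after their values were seen, were at 27.1 ± 3.90 and 30.5 ± 4.47 CPM, and at 220.2 ± 17.6 and 250.3 ± 10.7 CPM. For Neto1 the log2 fold change was 0.17 (SE 0.12, unadjusted p = 0.205, adjusted p = 0.810 by edgeR), and it was 0.071 without WT replicate 1 and 0.087 without ErbB4 KO replicate 2. For Neto2 every library labelled ErbB4 KO, from 237 CPM up, was above every WT library, up to 236 CPM (log2 fold change 0.18, SE 0.064, unadjusted p = 0.0141, adjusted p = 0.810 by edgeR). It was the 1 of 9 partners with labels wholly apart, against 3.34% of all genes. Without WT replicate 1, 4 of the 9 partners were above 0, with a median of -0.0045.

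Of 11 metabotropic receptor partners, which include the Homer and Shank scaffold genes, 9 were above 0 and 1 had an unadjusted p under 0.05, with a median of 0.11. They ran from Homer3 at -0.07 (-0.040 without WT replicate 4) to Frmpd4, a scaffold gene, at 0.44 (0.26 without ErbB4 KO replicate 3). Without WT replicate 1 the median was 0.0016 with 7 above 0. With Xist as a covariate 5 of the 11 were above 0, with a median of -0.014. Of the genes that carry the group I signal, 9 of 10 were in the files and 8 of these were above 0, with 1 at an unadjusted p under 0.05. The extremes were Itpr1, the inositol trisphosphate receptor gene, at 0.33 and Plcb3, a phospholipase C gene, at -0.07 (-0.046 without ErbB4 KO replicate 2). The median of these 9 was 0.11, and 0.026 without WT replicate 1.

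Of 12 genes of group II and III transduction, 10 were above 0 and 2 had an unadjusted p under 0.05, with a median of 0.10. Adcy1, the calcium-stimulated adenylyl cyclase gene, was highest at 0.44 (SE 0.12, unadjusted p = 0.00404, adjusted p = 0.810 by edgeR). It stood at 114, 184, 157 and 168 CPM under the WT label and at 212, 231, 221 and 184 CPM under the ErbB4 KO label. WT replicate 2, at 183.75 CPM, and ErbB4 KO replicate 4, at 183.67 CPM, met at the border of the groups. The lowest was Gnai2, an inhibitory G protein subunit gene, at -0.07. Without WT replicate 1 the median was 0.05, Adcy1 was at 0.32 and Gnai2 at -0.017.

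Among 10 genes of glutamate supply and clearance, 7 were above 0 and 1 had an unadjusted p under 0.05, with a median of 0.07. Slc1a1, the neuronal glutamate transporter gene, was highest at 0.29 (SE 0.076, unadjusted p = 0.00267, adjusted p = 0.810 by edgeR). Its values were 43.5, 51.4, 46.9 and 51.7 CPM under the WT label and 61.8, 59.9, 61.6 and 53.0 CPM under the ErbB4 KO label. These did not overlap, as for 1 of the 10 genes of the list and 3.34% of all genes. Slc1a1 was at 0.24 without WT replicate 1, and the median of the list was then 0.021. The lowest of the list was Slc17a8, a vesicular glutamate transporter gene, at -0.22 from 17 to 67 counts per library, with values from -0.42 without WT replicate 1 to -0.072 without ErbB4 KO replicate 2.

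With Xist as a covariate, 0 genes of these 5 lists had an unadjusted p under 0.05, and those above 0 were 6 of 9 kainate partners, 6 of 9 group I genes, 10 of 12 group II and III genes and 7 of 10 genes of supply and clearance. With the length trend removed the medians of the 5 lists ran from 0.026 to 0.069.

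Markers of the cells in the tissue were counted in the same way. All 8 radial glia markers had log2 fold changes below 0, 4 with an unadjusted p under 0.05 (5.53% of all genes in either direction), and a median of -0.21. The median was -0.14 without WT replicate 1, with 1 of 8 above 0, and 1 of 8 was also above 0 with the length trend removed. With Xist as a covariate 1 of 8 was above 0 and 1 had an unadjusted p under 0.05. Pax6 was at -0.27, and the summed level ran from 1766 to 2320 CPM under the WT label, highest in WT replicate 1, and from 1745 to 1935 CPM under the ErbB4 KO label. All 6 oligodendrocyte lineage markers were above 0, 2 with an unadjusted p under 0.05 (1 without WT replicate 1, with the length trend removed or with Xist), and Sox10 was at 0.61 (sums 50.4 to 65.6 and 57.3 to 72.4 CPM). Projection neuron markers had 2 of 7 above 0 (sums 2752 to 3136 and 2675 to 3050.2 CPM), interneuron markers 4 of 10 (616 to 811 and 594 to 804 CPM) and Cajal-Retzius markers 3 of 6 (183 to 280 and 248 to 295 CPM). These counts turned with the setting. They were 4 of 7, 2 of 10 and 1 of 6 without WT replicate 1, and with Xist as a covariate 1 of 7, 9 of 10 and 0 of 6. Of the meningeal markers 4 of 5 tested were above 0 (sums 13.1 to 15.8 and 12.5 to 20.9 CPM), and of the red blood cell markers 1 of 4 (31.8 to 56.6 and 20.8 to 35.2 CPM), with 2 of 7 listed genes at 0 in all libraries. The red blood cell markers had the lowest median of the lists, -0.69, and 2 of the 4 were lower with an unadjusted p under 0.05. With Xist as a covariate their median was -0.32, with 2 of 4 above 0 and none under 0.05. No marker gene passed an adjusted p of 0.05, and the part of these cells in the receptor values was not tested.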

How the data were processed

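Single-end, non-strand-specific reads were aligned by the authors with HISAT (mm9 genome), and HTSeq-count gave the reads of each gene (versions, annotation and counting mode not given in the sources used here). The deposited files hold raw counts, 1 value per gene symbol. The authors' DESeq2 table holds their fold changes and p-values and was not used. Groups came from the labels. The 14696 genes kept by filterByExpr (minimum count 10, minimum total 15) were fitted with edgeR 4.0.16 (TMM, quasi-likelihood F test, two-sided) in R 4.3.3, and p-values were adjusted by Benjamini-Hochberg over all of them (threshold 0.05). CPM is per effective library size, log2 CPM has a prior count of 2, and the common biological coefficient of variation was 10.7%, which limits what small differences can be seen. The fit was tested on simulated data. Alternatives were DESeq2 1.42.0, limma-voom 3.58.1, other normalizations and filters, covariates, a replicate block and leaving out each library. Positions and transcripts are GENCODE of NCBIM37, matched by symbol.

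The members and lists were chosen with earlier results of these data known. Named are the 9 members, Grm4, Grm6 and Grm8, Erbb4, each functional list's genes of highest and lowest fold change, and each member's nearest pattern. Neto1, Neto2, Pax6, Sox10, Neurod6 and Xist were named after their values were seen. Some genes of the lists are not reported here. Counts of the lists without WT replicate 1 were added after seeing the data.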

Additional observations from a re-analysis of the deposited data

Results flagged for a closer look

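In 5 of 24 groups of 4 libraries, 1 library lay far from the other 3 by Dixon's test at the 95% level. The groups were those of the 9 members, Grm4, Grm8 and Erbb4 under the 2 labels. Chance gives about 1 group in 20 where groups are independent, but these all came from the same 8 libraries. The rate over all genes was not computed. Grik2 was at 54.6 CPM in WT replicate 1 and at 75.5 to 79.8 CPM in the other WT libraries. Grik3 was at 216 CPM in the same library and at 267 to 272 CPM in the others. Grik3 was also low in ErbB4 KO replicate 1, at 257 CPM against 278 to 279 CPM. Grik5 was at 204 CPM in WT replicate 3 and at 242 to 246 CPM in the others. Grm5 was at 75.4 CPM in ErbB4 KO replicate 4 and at 87.7 to 89.7 CPM in the rest of its group.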

How the results depend on the processing

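Over 17 alternatives no member passed an adjusted p of 0.05, and 138 of 153 member values kept their direction, 6 of the 9 members under all 17. Another prior count enters only log2 CPM and was not counted. Genes called numbered 4 by edgeR with TMM, 24 by DESeq2, 1 with RLE or upper-quartile normalization, 1 with the replicate block, 1 with Xist as a covariate and 2 with the length trend removed. Leaving out 1 library gave 1 to 13, the latter without WT replicate 4. Genes at an unadjusted p under 0.05 were 812, against 252 with Xist as a covariate and 430 to 1394 with 1 library left out.

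Members at an unadjusted p under 0.05 numbered 1, against 2 (Grm3 and Grm5) by limma-voom, without the filter, with the replicate block and with the length trend removed, and 0 with Xist. Over all genes the number also rose from 812 in the first 4 of these settings. It was 840 by limma-voom, 1022 of 18872 without the filter, 1025 with the replicate block and 1039 with the length trend removed. Without ErbB4 KO replicate 4 it was 1145. Leaving out 1 library gave 0 to 4 members: none without WT replicate 1, WT replicate 3, ErbB4 KO replicate 2 or ErbB4 KO replicate 3, 2 without ErbB4 KO replicate 4, and 4 (Grm2, Grm3, Grm5 and Grm7) without WT replicate 2, where 9.40% of all genes were under 0.05, against 5.53% with all libraries. Members whose labels did not overlap numbered 0 to 2 in this way, with Grik4 without WT replicate 2, Grik3 without ErbB4 KO replicate 1, and Grm3 and Grm5 without ErbB4 KO replicate 4, where 9.97% of all genes were apart. Over all genes this share was 3.34% with all libraries and 4.54 to 9.97% with 1 left out.

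Signs near 0 turned. Grik1 was at 0.19 with Xist and -0.079 to 0.046 with 1 library left out. Grik2 was at -0.014 with Xist, -0.0082 with the length trend removed and -0.096 to 0.067 with 1 library left out. Grik5 was at 0.0021 by limma-voom, 0.0054 with upper-quartile normalization, 0.00049 with the replicate block and -0.063 to 0.024 with 1 library left out. With 1 library left out, Grm4 ran from -0.14 to 0.050, Grm8 from -0.0046 to 0.22 and C1ql2, at 4 to 22 counts, from -0.059 to 0.50. The causes were not tested. Same-numbered deviations correlated at 0.0837, 0.135, 0.0476 and 0.0236, and those of unlike numbers at -0.187 to 0.154. Of the WT libraries, 2 of 4 were nearest to their own number. With so few libraries and such weak correlations, whether replicate numbers pair the libraries cannot be told.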
